A study of Mus musculus with 15 samples.

Results

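The 3 brain libraries named APOE_H were compared with the 3 named APOE_L, gene by gene, in mouse RNA sequencing given as TPM (an abundance scaled to transcript length and to the library total). These were 6 of the 15 libraries of the study, and the comparison covered each entry of the table that reached 1 TPM in at least 3 of the 6, which was 12882 of 65964 entries. The mice were C57BL/6, and the label of each library, untreated controls included, names a KA-induced TLE model, that is, temporal lobe epilepsy brought on by kainic acid, an agonist of kainate-type glutamate receptors. The 6 APOE libraries are labelled as treated with both KA and APOE, and the 3 KA_H and 3 KA_L libraries used beside them as treated with KA only. No label defines L or H, says whether APOE was added, removed or altered, gives an age, or tells if replicates are different animals. P-values therefore measure only the spread between libraries, which may be technical. In the gene-by-gene fit that spread was pooled over all 15 libraries, those outside the comparison included.

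Apolipoprotein E carries cholesterol and phospholipid between cells of the brain. It is made mostly by astrocytes, and by microglia, the resident macrophages of the brain, when they respond to damage. Responding microglia are known to raise lysosomal proteases, lipid-handling genes and antigen-presenting MHC class II molecules. The choroid plexus is a secretory epithelium in the ventricles that makes cerebrospinal fluid, and its most abundant transcript encodes transthyretin.

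All 18 microglia marker genes reached 1 TPM in each of the 6 libraries, with P2ry12, a purinergic receptor gene of resting microglia, at 2498, 3101 and 2421 TPM in APOE_L against 2090.1, 1973 and 878 TPM in APOE_H. The tissue label is brain, yet 14 of 20 astrocyte markers, 19 of 20 neuron markers and 10 of 10 oligodendrocyte precursor markers failed to reach 1 TPM in 3 of the 6 libraries, and 6 neuron markers were listed at 0 in all 6. Several whole-library measures separated the groups without overlap. Entries at 1 TPM or more numbered 10161 to 11237 in APOE_L and 12801 to 15452 in APOE_H, and assembled loci without a gene name held 10.6 to 11.3% of the total in APOE_L and 2.20 to 3.17% in APOE_H. Rank correlations across genes were 0.505 to 0.520 between APOE_L libraries, 0.691 to 0.785 between APOE_H libraries and 0.279 to 0.401 between the groups. Exact two-sided permutation tests of entry number and locus share gave p = 0.1, the smallest that 3 libraries against 3 allow.

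In all, 1503 entries (11.7%) passed an adjusted p under 0.05 (limma on log2(TPM + 1), Benjamini-Hochberg over the 12882), 1170 higher in APOE_H (9.08%) and 333 lower (2.59%). The median log2 fold change of all entries was 0.72. Values of the groups did not overlap for 4757 entries (36.9%). Higher and lower calls differed in level, which the filter set in part. Of the 1170 higher entries 729 (62.3%) were under 1 TPM in all 3 APOE_L libraries, and 269 of them were listed at 0 there, whereas 46 of the 333 lower entries (13.8%) were under 1 TPM in all 3 APOE_H libraries. Entries under 1 TPM in a whole group could be tested only if the 3 libraries of the other group all reached 1 TPM. Their direction and lack of overlap were thus set by the filter. This held for 1168 entries reaching 1 TPM in APOE_H alone and 204 in APOE_L alone, some of them members of the lists below. Among entries with a mean of 5 TPM or more in both groups, the same fit had 235 higher and 238 lower. Quantile normalization moved the median of all entries to -0.09 and gave 748 higher and 700 lower, so the excess of higher entries was not kept under that scaling. Leaving out 1 library gave 661 (without APOE_H replicate 3) to 1119 calls, and 833, 874, 904 and 895 without APOE_H replicates 1 and 2 and APOE_L replicates 1 and 2. Testing each entry above 0 in any APOE library, the widest filter, gave 709 calls. Its count is given beside each gene list below where it moved by over 1.5 times.

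**Figure D1:**
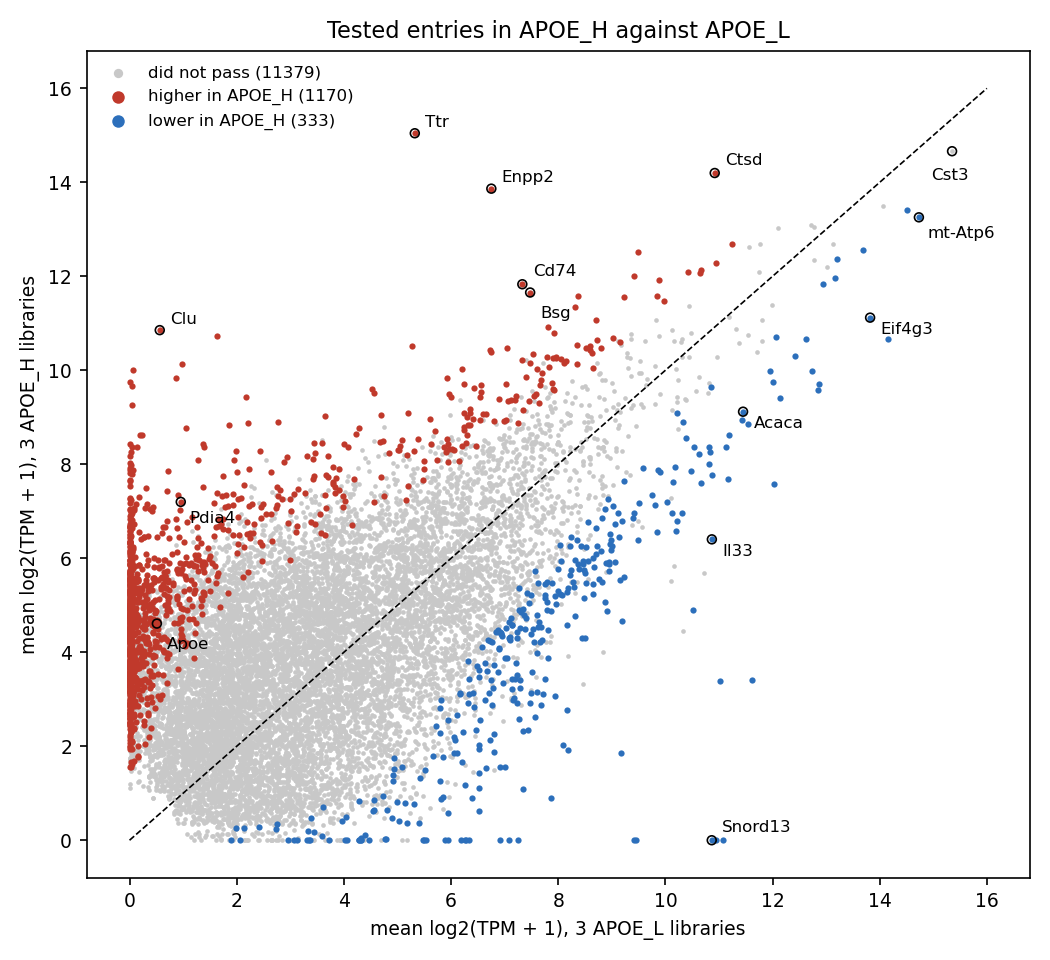
Mean log2(TPM + 1) of the 3 APOE_H libraries (vertical) against that of the 3 APOE_L libraries (horizontal) for the 12882 tested entries, with a dashed line of equality. The 1170 higher entries gather at the left edge, where APOE_L was near 0, and the 333 lower entries mostly at APOE_L levels well above it.

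Apoe itself was at 0.69, 0.71 and 0 TPM in APOE_L, the last listed at 0, and at 144, 6.49 and 12.4 TPM in APOE_H. Apoe was under 1 TPM in each APOE_L library, so it entered the test through APOE_H alone and could only be higher. Its values did not overlap between groups, as the filter required, and 1 APOE_H library stood far above the others (log2 fold change 4.10 with SE 0.87, adjusted p = 0.00691, limma, and exact permutation p = 0.1). Without that library, APOE_H replicate 1, the difference was 2.81. It did not pass when the 6 libraries were fitted alone (adjusted p = 0.0617, limma) or after quantile normalization (2.97, adjusted p = 0.0694, limma). Fold changes here and below are on the log2(TPM + 1) scale, which understates changes near 0, and paired values give APOE_L replicates 1, 2 and 3 first, against those of APOE_H. The other libraries held far more Apoe, at 161, 889 and 555 TPM in untreated CTRL_L, 3084, 3262 and 1969.6 TPM in KA_L and 16636, 10438 and 8767 TPM in KA_H.

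Choroid plexus genes gave some of the largest differences. All 14 genes of the choroid plexus marker list passed as higher in APOE_H (9.08% of all entries did), with a median log2 fold change of 6.98 (6.93 without the 4 listed at 0 in all 3 APOE_L libraries) against 0.72 over all entries, and 8 to 10 passed with any 1 library left out and 8 with the widest filter. Of the 14, 11 were under 1 TPM in all 3 APOE_L libraries, so they entered the test through APOE_H alone and could only be higher. Among all 1168 entries that entered in this way, 729 were called higher. The summed level of the 14 was 126 to 297 TPM in APOE_L and 38789 to 59645 TPM in APOE_H. The level was not tied to H alone, since the 3 untreated CTRL_L libraries summed to 139.8, 39619.8 and 24287 TPM. Ttr, encoding the thyroid hormone carrier transthyretin, was at 136, 1.46 and 189.7 TPM in APOE_L against 24454, 41384 and 38126 TPM in APOE_H (log2 fold change 9.72 with SE 1.78, adjusted p = 0.00312, limma). It had the highest mean of all genes in APOE_H, and its lowest APOE_H value was far above its highest APOE_L value. Enpp2, encoding autotaxin, the secreted enzyme that makes lysophosphatidic acid, was at 95.9, 119.7 and 106 TPM against 12437, 14928 and 17902 TPM (log2 fold change 7.11 with SE 1.38, adjusted p = 0.00419, limma). Its spread within each of these groups was small beside the gap, while the SE also takes in the spread of CTRL_L (85.2, 16612 and 12721 TPM). The folate receptor gene Folr1 was at 0.12, 0 and 0 TPM in APOE_L against 428, 785 and 683 TPM in APOE_H, and the potassium channel gene Kcnj13 at 0.04, 4.52 and 0.04 against 614, 943 and 1293 TPM (adjusted p = 0.00165 and 0.00357, limma). Channel subunit gene Kcne2 and the secreted BMP and Wnt antagonist gene Sostdc1 were listed at 0 throughout APOE_L, against 192, 178 and 421 TPM for Kcne2 and 174, 237 and 313 TPM for Sostdc1 in APOE_H (adjusted p = 0.00464 and 0.00291, limma). In these bulk libraries, fewer cells of a type and less RNA per cell cannot be told apart.

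Other genes near the top by fold change were Clu, encoding the lipid-carrying chaperone clusterin (0, 2.23 and 0 TPM in APOE_L against 1604, 1955 and 2021 TPM in APOE_H), and Ptgds, encoding the prostaglandin D2 synthase secreted into cerebrospinal fluid (0, 0.89 and 14.7 against 1136, 1812 and 2336 TPM). Igfbp2, an insulin-like growth factor binding protein gene, was at 0.04, 0 and 0.05 TPM against 648, 907 and 888 TPM (log2 fold change 9.61 with SE 1.33, adjusted p = 0.000594, limma). Fxyd1, encoding a regulator of the sodium pump, was listed at 0 in APOE_L and stood at 598, 1022 and 1061 TPM in APOE_H, and the mitochondrial gene Chchd10 at 0, 0.13 and 0 against 609.97, 1230.3 and 1449.8 TPM. For each of these 5 genes the groups were separated by a wide gap, with APOE_L under 3 TPM except for Ptgds in replicate 3. Igfbp2, Fxyd1 and Chchd10 were under 1 TPM in each APOE_L library, so they entered the test through APOE_H alone. For them the direction and the lack of overlap were set by the filter. Bsg, encoding basigin, a partner of lactate transporters found in endothelium and epithelium, was at 130.3, 204 and 209 TPM against 2349.8, 3920.1 and 3641 TPM (log2 fold change 4.18 with SE 0.46, adjusted p = 0.000124, limma).

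**Figure D2:**
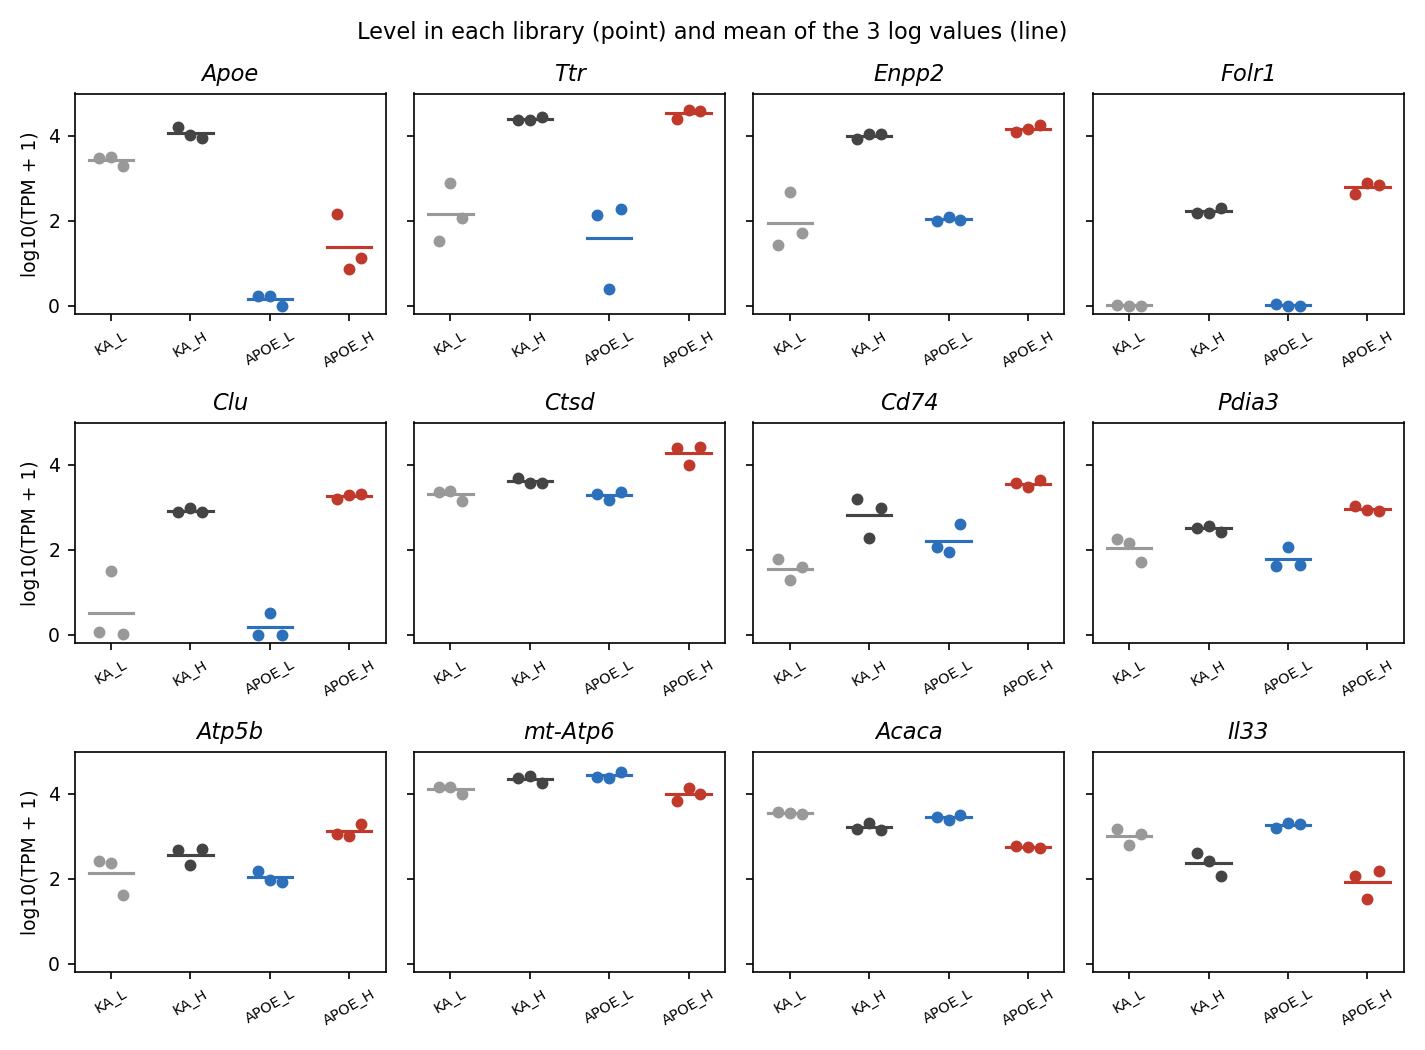
Log10(TPM + 1) of 12 genes in each library of KA_L, KA_H, APOE_L and APOE_H (points, 3 per group), with the mean of the log values as a line. Apoe was low in the APOE libraries, Ttr and Enpp2 were high in both H groups, and mt-Atp6, Acaca and Il33 were lower in APOE_H than in APOE_L.

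In the marker lists of other cells, few genes reached the level for testing. Passing as higher were 3 of 6 tested astrocyte markers, among them Ndrg2 (0, 0.28 and 0 TPM in APOE_L against 107, 149 and 179 TPM in APOE_H), 1 neuron marker of 1 tested, 2 of 5 oligodendrocyte, 2 of 8 endothelial, 1 of 2 mural and 4 of 6 ependymal markers, against 9.08% of all entries, and none was lower. Some tested markers were under 1 TPM in each APOE_L library and could only be higher. These were 2 astrocyte, 1 neuron, 2 endothelial, 1 mural and 2 ependymal markers. With a library left out 1 to 3 ependymal, 0 mural and 1 to 2 endothelial markers passed, and with the widest filter 0 ependymal markers. The astrocyte sum of 204 to 300.2 TPM in APOE_L and 1971 to 2558 TPM in APOE_H was, in APOE_H, mostly Clu, which the choroid plexus also expresses. The 2 oligodendrocyte calls were Trf and Ptgds, and the 2 endothelial calls were Slco1a4 and Bsg. Trf and Bsg are not confined to those cell types. Several defining markers were low in both groups. The astrocyte filament gene Gfap reached at most 3.53 TPM, the endothelial junction gene Cldn5 13.4 TPM, and Olig2 and Sox10 of the oligodendrocyte lineage were listed at 0 in all 6. Other astrocyte markers were high in 1 library only, such as the water channel gene Aqp4 (53.5 TPM) and the bicarbonate transporter gene Slc4a4 (116 TPM) in APOE_L replicate 1 and the aldolase gene Aldoc (48 TPM) in APOE_H replicate 2. Neutrophil (1 tested), red blood cell (4) and lymphocyte (3) markers had no call by limma, although APOE_H replicate 2 held 485 TPM of the neutrophil gene S100a8, listed at 0 in the other 5. Of 9 border macrophage and monocyte markers, Cbr2 and Lyz2 were higher (Lyz2 in 3 of 6 fits with a library left out), and their list summed to 807 to 1749 TPM in APOE_L and 2755 to 6744 TPM in APOE_H. The part of choroid plexus and other cell types in the gene groups described next was not tested.

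Of the 18 microglia marker genes, 3 were higher (16.7%, against 9.08% of all entries), 15 did not pass and 0 passed with any 1 library left out, and their median log2 fold change was 0.35, against 0.72 over all entries. The transmembrane gene Tmem119 (104, 199.5 and 203 TPM against 946, 413 and 467 TPM) and the Fc receptor-like gene Fcrls (253, 172 and 264 against 1407, 971 and 923 TPM) were 2 of the 3 (adjusted p = 0.039 and 0.038, limma; 0.0567 to 0.168 and 0.0657 to 0.130 with a library left out). P2ry12 had lower values in each APOE_H library than in any APOE_L library and did not pass (log2 fold change -0.79 with SE 0.44, adjusted p = 0.259, limma). Cst3, encoding cystatin C and the most abundant transcript of APOE_L, was at 39705, 49839.8 and 36819.7 TPM against 33415, 34425 and 15149 TPM (adjusted p = 0.145, limma). Among 18 microglial transcription factor genes 1 passed. Maf, encoding a bZIP factor of macrophages, was lower, at 469, 447 and 311 TPM against 89, 60.8 and 14.2 TPM (log2 fold change -3.20 with SE 0.59, adjusted p = 0.0031, limma), and the groups did not overlap.

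Many lysosomal genes were higher. Passing in that direction were 11 of 24 lysosomal enzyme and membrane protein genes (median 2.29; 5 to 8 with a library left out), 7 of 15 cathepsin and cystatin genes (median 1.55; 4 to 6) and 8 of 22 disease-associated microglia genes (median 1.95; 5 to 7), against 9.08% of all entries, and no member of the 3 lists was lower. With the widest filter 6, 4 and 5 passed. Cathepsins are the proteases of the lysosome. Ctsd, encoding the aspartic protease cathepsin D, was at 2057, 1524 and 2321 TPM in APOE_L against 24881, 10229.9 and 26090.1 TPM in APOE_H (log2 fold change 3.28 with SE 0.40, adjusted p = 0.0003, limma). APOE_H replicate 2 had less of it than the other two APOE_H libraries, and still several times more than any APOE_L library. The cysteine protease genes Ctsb (525, 641 and 1096 against 7129, 4170.3 and 6840.4 TPM) and Ctsz (200.2, 298 and 601 against 4077, 2453 and 2826 TPM) and the carboxypeptidase gene Ctsa (159, 215 and 136 against 1219, 814 and 787 TPM) passed with adjusted p = 0.00165, 0.0031 and 0.00403 by limma. Lamp1, a major lysosomal membrane glycoprotein gene, was at 189, 91 and 233 TPM against 1627, 857 and 1221 TPM, and Psap, the precursor of the saposins that help degrade sphingolipids, at 263, 249 and 284 against 1218, 786 and 1822 TPM. Cd63, a tetraspanin gene of late endosomes (764, 248 and 383 against 1943, 2251 and 2257 TPM), and Laptm5, a lysosomal membrane gene of immune cells (147, 219 and 348 against 3176, 1325 and 1768 TPM), were likewise separated between the groups (adjusted p = 0.00257 and 0.00486, limma). Of 16 genes of the proton pump that acidifies lysosomes, 3 were higher (1 to 5 with a library left out, 1 with the widest filter), with Atp6v0c at 191, 275 and 254 against 1525, 1104 and 1078 TPM (adjusted p = 0.00503, limma).

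Antigen presentation by MHC class II depends on an invariant chain and paired alpha and beta chains, whose promoters share a set of conserved boxes. Of 11 tested genes 5 were higher and 6 did not pass (median 2.69; 2 to 4 with a library left out, 1 with the widest filter), against 9.08% higher and a median of 0.72 over all entries. Cd74, the invariant chain gene, was at 115, 89.2 and 398 TPM in APOE_L against 3659, 2955 and 4471 TPM in APOE_H (log2 fold change 4.50 with SE 0.93, adjusted p = 0.00609, limma), and H2-Oa, encoding a chain of the accessory molecule H2-O, at 0.1, 0 and 0.78 against 28.3, 70.9 and 57.8 TPM (adjusted p = 0.00236, limma). Both kept the call with any 1 library left out. H2-Oa, under 1 TPM in each APOE_L library, entered the test through APOE_H alone and could only be higher. The classical chain genes H2-Aa (24.8, 52 and 287 against 1009, 969 and 1185 TPM), H2-Ab1 (29.7, 48.6 and 36.6 against 1998, 1055 and 1502 TPM) and H2-Eb1 (0.03, 3.96 and 62.4 against 555, 336 and 578 TPM) did not overlap between groups and passed with adjusted p = 0.0221, 0.0469 and 0.0464 by limma. The APOE_L values of H2-Aa and H2-Eb1 were uneven, and the 3 genes passed in 1, 0 and 1 of the 6 fits with a library left out. H2-D1, a class I heavy chain gene, was higher, at 335, 165 and 570.4 TPM against 3432, 1242 and 4193 TPM (log2 fold change 3.05 with SE 0.62, adjusted p = 0.0059, limma), whereas the light chain gene B2m was at 16319.6, 12139.5 and 25500.2 TPM against 13952, 9127 and 12169 TPM and did not pass (adjusted p = 0.146, limma). Interferon response genes had 3 of 22 higher (1 to 5 with a library left out, 1 with the widest filter) and 1 lower, near the 9.08% and 2.59% of all entries. The lower one, Ddx58, encoding the RNA sensor RIG-I, went from 3414, 1839.5 and 3295 TPM to 571, 396 and 519 TPM (log2 fold change -2.49 with SE 0.45, adjusted p = 0.00288, limma).

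The Y box, CTGATTGG, is the conserved CCAAT element of class II promoters. It was sought on both strands in the 250 bases before the start of each RefSeq gene (GRCm38.p6), and it occurred in 3.83% of 32851 promoters. With a promoter sequence there were 9 class II genes, and 3 held it, and these were 3 of the 3 called higher that had a sequence there. The matches with 20 bases on each side are shown 5′ to 3′ on the strand of the gene, with the motif in capitals, since these genes were higher together.
H2-Aa: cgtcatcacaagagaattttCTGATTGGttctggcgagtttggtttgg
H2-Eb1: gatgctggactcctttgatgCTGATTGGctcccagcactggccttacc
H2-Oa: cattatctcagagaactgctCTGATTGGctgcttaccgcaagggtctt
The window of H2-Aa is chr17:34287847-34287894 (minus strand), that of H2-Eb1 chr17:34305785-34305832 (plus strand) and that of H2-Oa chr17:34092313-34092360 (plus strand). The box began 51, 62 and 46 bases before the start. A match describes the letters and no binding.

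Genes of the respiratory chain divided by the genome that encodes them. Of 77 nuclear-encoded subunit genes of complexes I to V, 26 were higher in APOE_H, 51 did not pass and 76 had a positive fold change (median 2.18, against 0.72 over all entries). These were 9 of 37 complex I genes (1 to 7 with a library left out) and 17 of 40 genes of complexes II to V (10 to 14), against 9.08% of all entries, and 2 and 10 with the widest filter. Atp5b, the catalytic beta subunit gene of ATP synthase, was at 152, 94.3 and 85 TPM in APOE_L against 1134, 1046 and 2006 TPM in APOE_H (log2 fold change 3.63 with SE 0.66, adjusted p = 0.00291, limma). The ATP synthase genes Atp5h (50.2, 79.6 and 157 against 621, 783 and 1021 TPM) and Atp5e (70.2, 74.2 and 103 against 331, 832 and 707 TPM) had values with no overlap (adjusted p = 0.00109 and 0.00329, limma). Likewise separated were Cox4i1 of complex IV (326, 431 and 243 against 1086, 1636 and 1843 TPM), Uqcrq of complex III (112, 47.2 and 155 against 638, 736 and 858 TPM) and Ndufs5 of complex I (82.5, 56.5 and 88.8 against 415, 589 and 650.3 TPM). Adjusted p by limma was 0.0039, 0.0059 and 0.00472. Ndufa1 (694, 331 and 949 against 2019, 3389 and 3949 TPM) passed in the full fit (adjusted p = 0.0153, limma) and in 3 of 6 with a library left out.

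Of 12 tested mitochondrially encoded genes 7 were lower in APOE_H and none was higher (median -1.12, 2.59% of all entries lower). The count was 3 (without APOE_H replicate 1) to 7 with a library left out, and 1 with the widest filter or without the variance trend, and mt-Nd4l was listed at 0 in all 6 libraries. Together they held 7.39 to 9.88% of the total in APOE_L and 2.69 to 5.29% in APOE_H. The ATP synthase gene mt-Atp6 was at 25535, 23726 and 33203 TPM against 6907, 13522 and 10005 TPM (log2 fold change -1.48 with SE 0.27, adjusted p = 0.00319, limma), and the complex I gene mt-Nd3 at 1754, 2195 and 1572 against 124, 735 and 306 TPM (log2 fold change -2.58 with SE 0.52, adjusted p = 0.00532, limma). APOE_H replicate 1 was the lowest library for both. The complex I gene mt-Nd2 (4148, 3948 and 4838 against 1142, 2217 and 1861 TPM) and the complex IV gene mt-Co2 (11036, 12654 and 16739 against 4182, 8074 and 6398 TPM) were lower without overlap (adjusted p = 0.0084 and 0.0105, limma). The call of mt-Co2 was lost without APOE_H replicate 1 (adjusted p = 0.0576, limma) and after quantile normalization. Reads of these genes can be shared with near-identical nuclear copies such as Gm28437, itself at 22074, 20274 and 27806 against 7661, 14706 and 11553 TPM, so the split between the copies is uncertain.

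**Figure D3:**
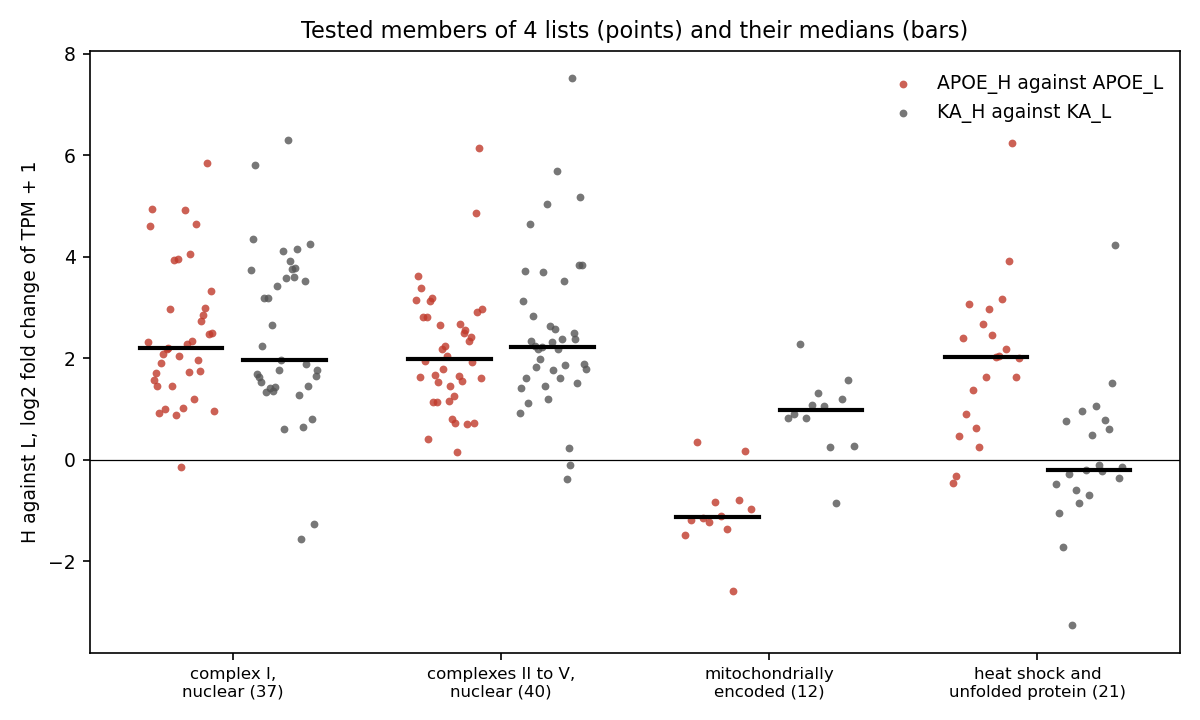
Log2 fold change of TPM + 1 for H against L in the APOE libraries (red) and the KA libraries (grey), for each tested member (points) of 4 lists, with medians as bars. Nuclear-encoded subunits had medians of 2.19 and 1.97 (complex I) and 1.99 and 2.23 (complexes II to V), mitochondrially encoded genes had medians of -1.12 and 0.98, and heat shock and unfolded protein genes 2.02 and -0.20.

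Chaperones help proteins fold in the cytosol and the endoplasmic reticulum. Of 21 tested heat shock and unfolded protein response genes 8 passed, all higher (median 2.02; 6 to 10 with a library left out), against 9.08% and a median of 0.72 over all entries. Pdia3, encoding a disulfide isomerase that works with calreticulin, was at 40.8, 118 and 43.3 TPM in APOE_L against 1047, 877 and 823 TPM in APOE_H (log2 fold change 3.91 with SE 0.58, adjusted p = 0.000867, limma). A second isomerase gene, Pdia4, stood just under 1 TPM in each APOE_L library (0.91, 0.97 and 0.94) and at 155, 104 and 194 TPM in APOE_H (log2 fold change 6.24 with SE 1.10, adjusted p = 0.00257, limma). Pdia4 thus entered the test through APOE_H alone and could only be higher. The glucose-regulated chaperone genes Hspa5 (134, 246 and 244 against 816, 877 and 764 TPM) and Hsp90b1 (135, 70.4 and 92.7 against 605, 389.9 and 649 TPM) and the calreticulin gene Calr (85, 101 and 90.3 against 562, 404 and 514 TPM) were higher without overlap (adjusted p = 0.00538, 0.00776 and 0.016, limma). Calr lost the call without APOE_H replicate 1 or 3 (adjusted p up to 0.0617, limma). In the cytosol, Hspa8, the constitutive heat shock 70 kDa gene, was tight within each group at 306, 306 and 225 TPM against 1170.3, 1135 and 1137 TPM (log2 fold change 2.05 with SE 0.38, adjusted p = 0.00352, limma), and Hsp90ab1 was at 43, 70.8 and 18.5 against 319, 196 and 479.8 TPM (adjusted p = 0.00758, limma). In the KA libraries 0 of these 21 genes passed by limma (median -0.20, against 0.11 over all entries), and the difference between conditions passed for 0 of the 21. The choroid plexus markers summed to 57.9 to 1296 TPM in KA_L and 33433 to 41617 TPM in KA_H, and their part in the chaperone values was not tested. Hspa5, for example, had 292, 317 and 304 TPM in KA_L against 263, 328 and 259 TPM in KA_H, and the difference for this gene did not pass (difference 2.13, SE 0.58, adjusted p = 0.193, limma).

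The promoters of such genes are known for the ER stress response element, CCAAT followed after any 9 bases by CCACG. It was found on either strand in 0.113% of the 32851 promoters and in 5 of the 19 listed genes that had a promoter sequence, which were Hspa5, Hsp90b1, Calr, Canx and Pdia6. The first 3 were higher in APOE_H. Canx and Pdia6, named because of the match, did not pass (adjusted p = 0.334 and 0.121, limma). The windows of the 3 that passed are shown 5′ to 3′ on the strand of the gene with the element in capitals, as its reverse complement where it lies on the opposite strand.
Hspa5: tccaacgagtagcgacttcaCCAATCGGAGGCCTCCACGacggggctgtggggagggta
Hsp90b1: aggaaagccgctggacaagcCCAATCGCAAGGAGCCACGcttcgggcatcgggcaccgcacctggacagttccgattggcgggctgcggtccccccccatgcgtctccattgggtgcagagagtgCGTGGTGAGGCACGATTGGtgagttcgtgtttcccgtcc
Calr: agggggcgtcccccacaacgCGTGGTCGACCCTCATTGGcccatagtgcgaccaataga
The Hspa5 window is chr2:34772005-34772063 (plus strand), the Hsp90b1 window, which holds 2 elements, chr10:86705513-86705676 (minus strand) and the Calr window chr8:84847055-84847113 (minus strand). In the same way, the palindromic element described for lysosomal genes, GTCAC joined to GTGAC, was in 0.24% of all promoters and in 0 of 19 lysosomal genes with a sequence. The OTX core TAATCC was in 6.25% of all and in 1 of 9 choroid plexus genes, Otx2 itself. That gene was listed at 0 in APOE_L and at 33.1, 46.9 and 125 TPM in APOE_H, and it lost its call (adjusted p = 0.0239, limma) with any 1 library left out.

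Genes of energy metabolism were higher in part. Of 21 glycolysis genes 8 passed, all higher (median 2.87; 5 to 8 with a library left out, 4 with the widest filter), against 9.08% of all entries. Eno1, encoding an enolase, was at 32, 16.7 and 20.2 TPM in APOE_L against 727, 632 and 1025 TPM in APOE_H (log2 fold change 5.07 with SE 0.92, adjusted p = 0.00301, limma). Gapdh, which is often taken as a reference gene, was at 141, 272 and 368 against 1360.02, 1895 and 2188 TPM, and the pyruvate kinase gene Pkm at 74.3, 6.33 and 30.5 against 561, 288 and 934 TPM (adjusted p = 0.0097 and 0.00758, limma). The groups were apart for all 3. Of 20 fatty acid oxidation and peroxisome genes 7 were higher (median 3.33, with 2 to 5 when a library was left out and 2 with the widest filter). Acadvl, the very long chain acyl-CoA dehydrogenase gene, was at 0.87, 0.08 and 0.46 against 72.4, 95.5 and 95.1 TPM (log2 fold change 5.94 with SE 1.33, adjusted p = 0.0096, limma). It was among the 3 of the 20 under 1 TPM in each APOE_L library, which could only be higher.

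Lipid synthesis genes did not move as 1 group. Acaca, encoding acetyl-CoA carboxylase, which makes the malonyl-CoA for fatty acid synthesis, was lower, at 2814, 2395 and 3243 TPM in APOE_L against 577, 558 and 531 TPM in APOE_H (log2 fold change -2.33 with SE 0.24, adjusted p = 9.44e-05, limma). Its 3 APOE_H values lay close together, far below APOE_L. Plin3, a lipid droplet coat gene of the same list of 16, was higher, at 0.03, 0.03 and 1.12 TPM against 37.5, 13.8 and 28.8 TPM (log2 fold change 4.29 with SE 0.95, adjusted p = 0.00881, limma). In all, 2 of the 16 were higher (12.5%), near the 9.08% of all entries. Of 19 cholesterol synthesis genes 4 were higher (1 to 2 with a library left out, 2 with the widest filter), against 9.08% of all entries. Among the 4 was Msmo1, encoding a sterol methyl oxidase, at 2.84, 2.9 and 2.73 against 125, 141 and 153 TPM (adjusted p = 0.00761, limma). In this list 3 of the 19 were under 1 TPM in each APOE_L library and could only be higher. Of 19 apolipoprotein and efflux genes 7 were higher (3 with any 1 library left out and with the widest filter), against 9.08% of all entries. Of the 19, 6 were under 1 TPM in each APOE_L library, so they entered the test through APOE_H alone and could only be higher. Among these 6 were Apoe and Apod, the gene of the small lipid carrier apolipoprotein D. Apod was at 0.06, 0 and 0.02 against 15.5, 18.1 and 8.56 TPM (log2 fold change 3.82 with SE 0.72, adjusted p = 0.00362, limma).

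Antioxidant and iron genes were also higher in part. Of 24 antioxidant and glutathione genes 8 were higher (median 2.16; 5 to 8 with a library left out, 5 with the widest filter), against 9.08% of all entries. Gpx4, whose product reduces lipid peroxides, was at 107, 271 and 187 TPM against 912, 1156 and 1389 TPM (log2 fold change 2.69 with SE 0.50, adjusted p = 0.00351, limma). Near 0 in APOE_L were Gstm1, a glutathione transferase gene (0.07, 0 and 0 against 55.3, 45.2 and 99.9 TPM), Srxn1, encoding sulfiredoxin (0.12, 0 and 0 against 22.7, 9.88 and 18.2 TPM), and Hmox1, encoding the haem-degrading enzyme heme oxygenase 1 (0, 0 and 0.91 against 62.3, 49.4 and 31.1 TPM). By limma their adjusted p was 0.00995, 0.00271 and 0.0127. These genes were among the 4 of the 24 under 1 TPM in each APOE_L library, which could only be higher. Of 13 iron genes 6 were higher (3 to 5, and 3 with the widest filter), and 2 of the 13 were under 1 TPM in each APOE_L library and could only be higher. The ferritin heavy chain gene Fth1 was abundant in both groups, at 2996, 2038 and 2293 TPM against 7211, 6609 and 6078 TPM (log2 fold change 1.46 with SE 0.30, adjusted p = 0.00654, limma), and the transferrin gene Trf, also a choroid plexus and oligodendrocyte product, at 259.9, 123 and 191 against 1304, 1103 and 1552 TPM (log2 fold change 2.83 with SE 0.50, adjusted p = 0.00257, limma). Neither gene overlapped between the groups.

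Smaller groups held single genes that passed. Adora2b, encoding the low-affinity adenosine receptor, was listed at 0 in APOE_L and at 6.4, 11.3 and 27.4 TPM in APOE_H, and Nt5e, encoding the ectoenzyme CD73 that makes adenosine, was at 0.01, 0.03 and 0 against 4.56, 13.4 and 4.95 TPM (adjusted p = 0.00412 and 0.00156, limma), although Nt5e did not pass after quantile normalization. They were the 2 of 9 tested adenosine genes to pass, against 9.08% higher of all entries. Both were under 1 TPM in each APOE_L library, so they entered the test through APOE_H alone and could only be higher. In the matrix list 6 of 16 were higher (2 to 3 with a library left out, 2 with the widest filter), against 9.08% of all entries. The membrane metalloprotease gene Mmp14 was at 0.56, 0.1 and 0.23 against 56.8, 10.6 and 45.7 TPM and the metalloprotease inhibitor gene Timp3 at 0.01, 0.1 and 0 against 32.4, 42.1 and 28.1 TPM (adjusted p = 0.00464 and 0.0127, limma). Both were among the 3 of the 16 under 1 TPM in each APOE_L library, which could only be higher. Jund, an AP-1 factor gene and the 1 call among 18 immediate early genes, was at 15.7, 11.8 and 17.8 against 223, 106 and 172 TPM (log2 fold change 3.34 with SE 0.69, adjusted p = 0.00608, limma). Cytosolic ribosomal protein genes were near the median of all entries or below it, with 2 of 78 higher, 1 lower and a median of 0.29. For 31 proteasome genes the median was 2.07, but 2 were higher (0 to 3 with a library left out), a share under the 9.08% of all entries.

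**Figure D4:**
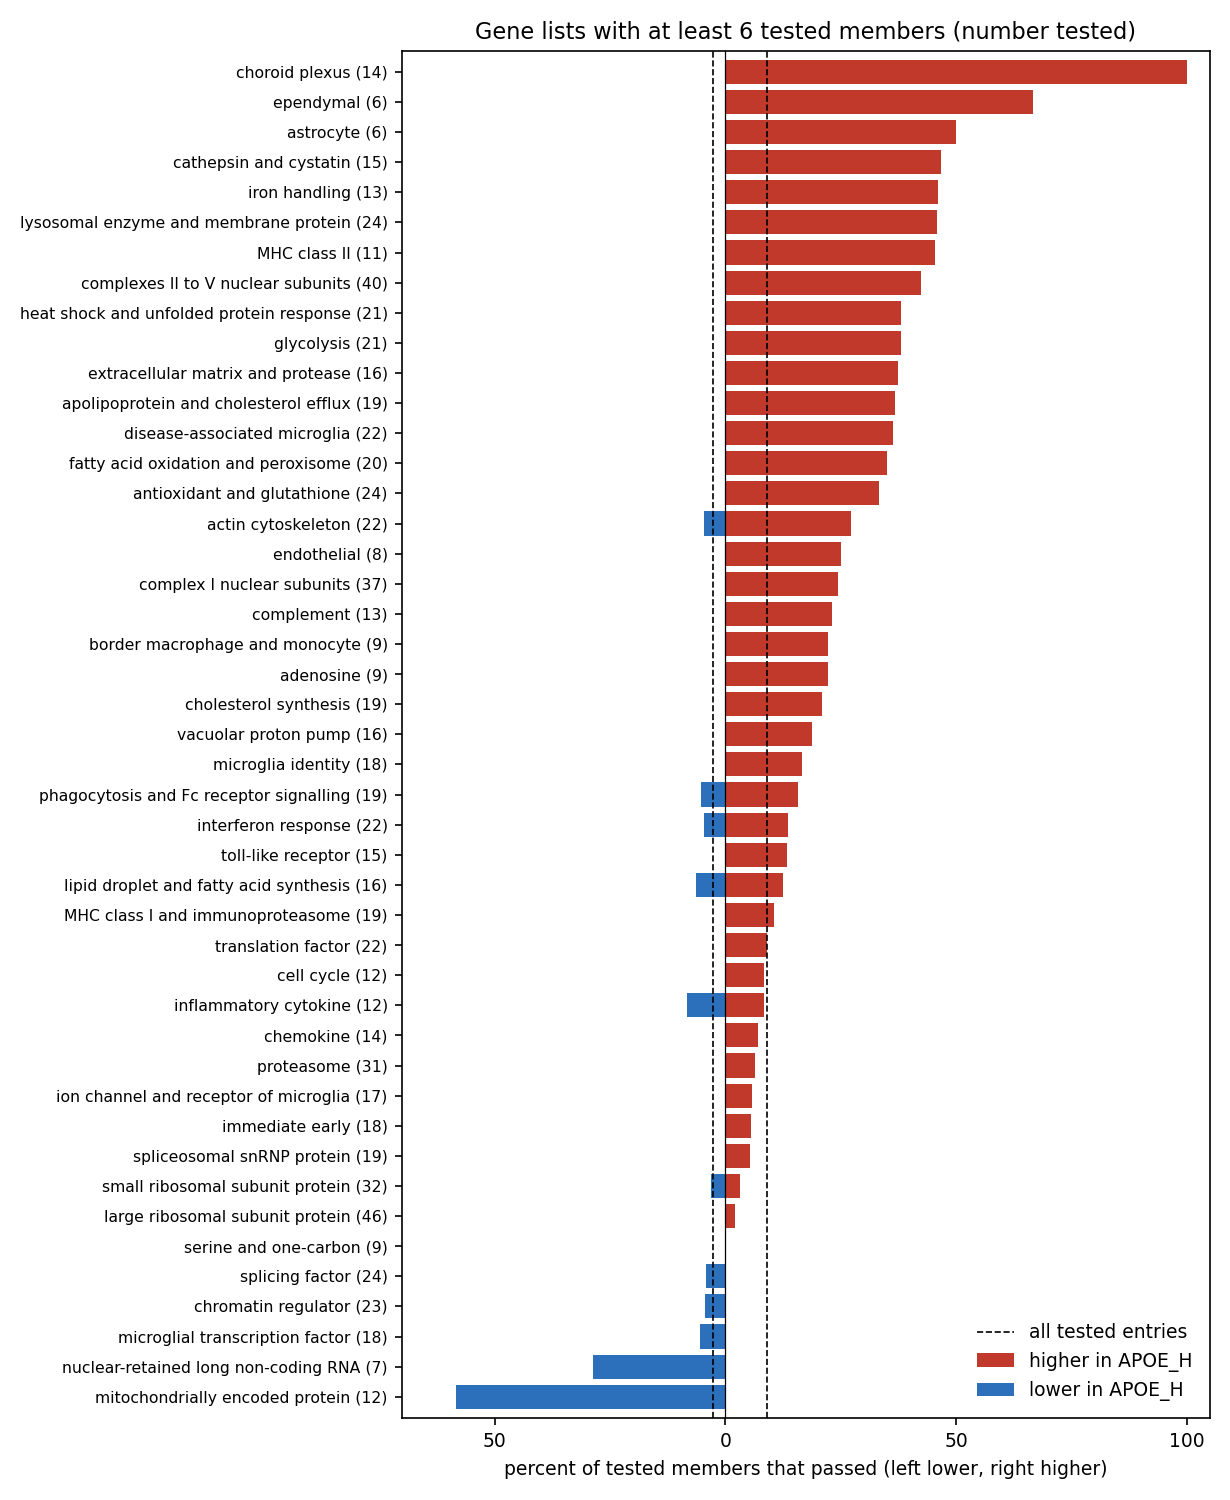
Percent of tested members that passed in each gene list, higher in APOE_H to the right (red) and lower to the left (blue), with the number tested in brackets and dashed lines at the 9.08% higher and 2.59% lower of all entries. Choroid plexus genes reached 14 of 14 higher, 11 of which entered the test through APOE_H alone. The mitochondrially encoded list had 7 of 12 lower.

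Among genes lower in APOE_H, the smallest p belonged to Eif4g3, encoding a translation initiation scaffold, at 13252, 13123 and 17418 TPM in APOE_L against 2375, 2184 and 2126 TPM in APOE_H (log2 fold change -2.70 with SE 0.21, adjusted p = 3.99e-06, limma). Mllt6, a chromatin reader gene, was at 8358, 5264 and 9530.1 TPM against 905, 613 and 1045 TPM (log2 fold change -3.16 with SE 0.30, adjusted p = 3.96e-05, limma). Both were among the abundant transcripts of APOE_L. Il33, encoding the nuclear alarmin interleukin 33, was at 1584, 2115 and 1943 against 116, 32.2 and 154 TPM (log2 fold change -4.46 with SE 0.80, adjusted p = 0.00284, limma), with a wide gap between the groups. Kctd12, a GABA-B receptor auxiliary subunit gene (1099, 883 and 788 against 126, 109 and 60.2 TPM), Ube2g2, a ubiquitin-conjugating enzyme gene of ER-associated degradation (1421, 1458 and 1425 against 283, 209.7 and 209.5 TPM), and Dock2, a Rac activator of leukocytes (321, 519.9 and 439.7 against 62.5, 81.3 and 59 TPM), were lower without overlap (adjusted p = 0.00047, 0.000124 and 0.00678, limma).

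Assembled loci and small RNAs were found mostly among the lower entries. Assembled loci gave 103 of 333 lower calls and 18 of 1170 higher calls, out of 1649 tested. The snRNA, snoRNA and misc_RNA genes gave 4, 3 and 2 lower calls of 9, 9 and 5 tested and none higher. Over all entries 2.59% were lower and 9.08% higher. Together those 3 classes held 0.565 to 0.753% of the total in APOE_L and 0.0674 to 0.0714% in APOE_H. The U13 small nucleolar RNA gene Snord13 was at 2357, 1197 and 2297 TPM in APOE_L and listed at 0 in all 3 APOE_H libraries (adjusted p = 0.00158, limma). The Y RNA gene Rny3 was at 803, 250.4 and 961 TPM against 0.02, 1.7 and 16.3 TPM (log2 fold change -7.32 with SE 1.35, adjusted p = 0.00319, limma), and Rny1 at 22.6, 129.8 and 575 TPM and listed at 0 in APOE_H (adjusted p = 0.0219, limma), a call held in 1 of 6 fits with a library left out. Snord13 and Rny1 entered the test through APOE_L alone and could only be lower. Gas5, a growth-arrest transcript that hosts small nucleolar RNAs, was at 1375, 1193 and 1284 against 402, 442 and 598 TPM (log2 fold change -1.43 with SE 0.32, adjusted p = 0.00979, limma). Of 7 tested nuclear long non-coding RNAs 2 were lower, against 2.59% of all entries, and 0 higher.

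Called protein-coding genes also differed in length. The median genomic span was 88.3 kb for the 164 lower genes, 14.7 kb for the 1096 higher genes and 27.6 kb for the 8755 that did not pass (GENCODE M21). In 5 equal groups of genes by span, the median log2 fold change was 1.80, 1.75, 1.37, 0.79 and -0.24 from the shortest to the longest group, and 1.15, 0.73, 0.38, -0.16 and -0.68 in the KA comparison. Whether this pattern, the share of assembled loci and the gene groups above have a common source was not tested.

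The same comparison in the KA libraries, which shares no library with the APOE comparison, had 278 calls (2.16%), 227 higher (1.76%) and 51 lower (0.396%). Without KA_L replicate 1 or 3 it had 81 or 62, and without KA_H replicate 1, 2 or 3 it had 106, 157 or 36. Of the 1170 entries higher in APOE_H, 144 were also higher in KA_H, that is 12.3% of the APOE calls and 63.4% of the KA calls, and 1000 (85.5%) had the same sign. For the 333 lower entries, 28 were shared (8.41% and 54.9%) and 281 (84.4%) had the same sign. Over all 12882 entries 66.1% had the same sign. Across the 12882 entries, which are not independent, Pearson's r between the fold changes was 0.47 and Spearman's rho 0.45. Ttr (31.6, 781 and 114 TPM in KA_L and 23632, 24072 and 28110.1 TPM in KA_H) and Eif4g3 (14924, 13908 and 14215 against 6529, 7941 and 5672 TPM) are examples on each side. Lysosomal genes had 1 of 24 higher in KA_H (median 1.03), against 11 in APOE_H, a difference in counts that was not tested. Gene by gene, the difference between conditions passed for 0 of the 24 by limma (median difference 0.72).

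A test of the difference between the H against L contrasts (APOE minus KA) passed for 35 entries (0.272%), 21 more positive in APOE (0.163%) and 14 more negative (0.109%). Of the 21, 17 were under 1 TPM in the other libraries, controls included, and at 1 TPM or more in the 3 APOE_H libraries. These entered the test through APOE_H alone, so they had to be high there, and their count supports nothing further. The same holds for Tradd and Slc5a5, listed at 0 in each APOE_L library but not under 1 TPM in all the KA libraries. Jund and Efhd2 reached 1 TPM in each APOE_L library. With the filter over all 15 libraries, or with a robust fit, 0 of the positive side passed (8 and 7 on the negative side). Fah, encoding an enzyme of tyrosine breakdown, was listed at 0 in APOE_L, KA_L and KA_H and at 13.6, 15.8 and 15.6 TPM in APOE_H. Jund had 49.3, 75.6 and 105.3 TPM in KA_L against 20.5, 17.6 and 20.04 TPM in KA_H, the opposite order to APOE (adjusted p = 0.179 within KA, limma), and the test between conditions passed (difference 5.21, SE 0.97, adjusted p = 0.0318, limma). On the negative side were 5 mitochondrially encoded genes. For mt-Atp6, KA_L held 14302, 14951 and 9809 TPM and KA_H 23852, 26130.3 and 18586 TPM, higher in KA_H where APOE_H was lower (difference -2.30, SE 0.39, adjusted p = 0.03, limma). B2m had 7809.99, 8625 and 8137 TPM in KA_L against 20086, 30146 and 23859.5 TPM in KA_H (difference -2.14, SE 0.35, adjusted p = 0.03, limma), and Fcer1g, the Fc receptor signalling chain gene, had 1837, 3197 and 1796 against 5171, 8129 and 6369 TPM in those groups and 3989, 4018 and 4258 in APOE_L against 3127, 2628 and 2344 in APOE_H. The number depended on 1 setting or library at a time. It was 0 with a pseudocount of 5, after quantile normalization or without the variance trend, 1 with a replicate block, and 0 to 57 with 1 of the 12 libraries left out (0 without APOE_L replicate 1 or 3, KA_L replicate 1 or KA_H replicate 1, 1 without APOE_L replicate 2, KA_L replicate 3 or KA_H replicate 2, 17 without APOE_H replicate 3 and 57 without APOE_H replicate 2), against 1265 entries at an unadjusted p under 0.05.

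**Figure D5:**
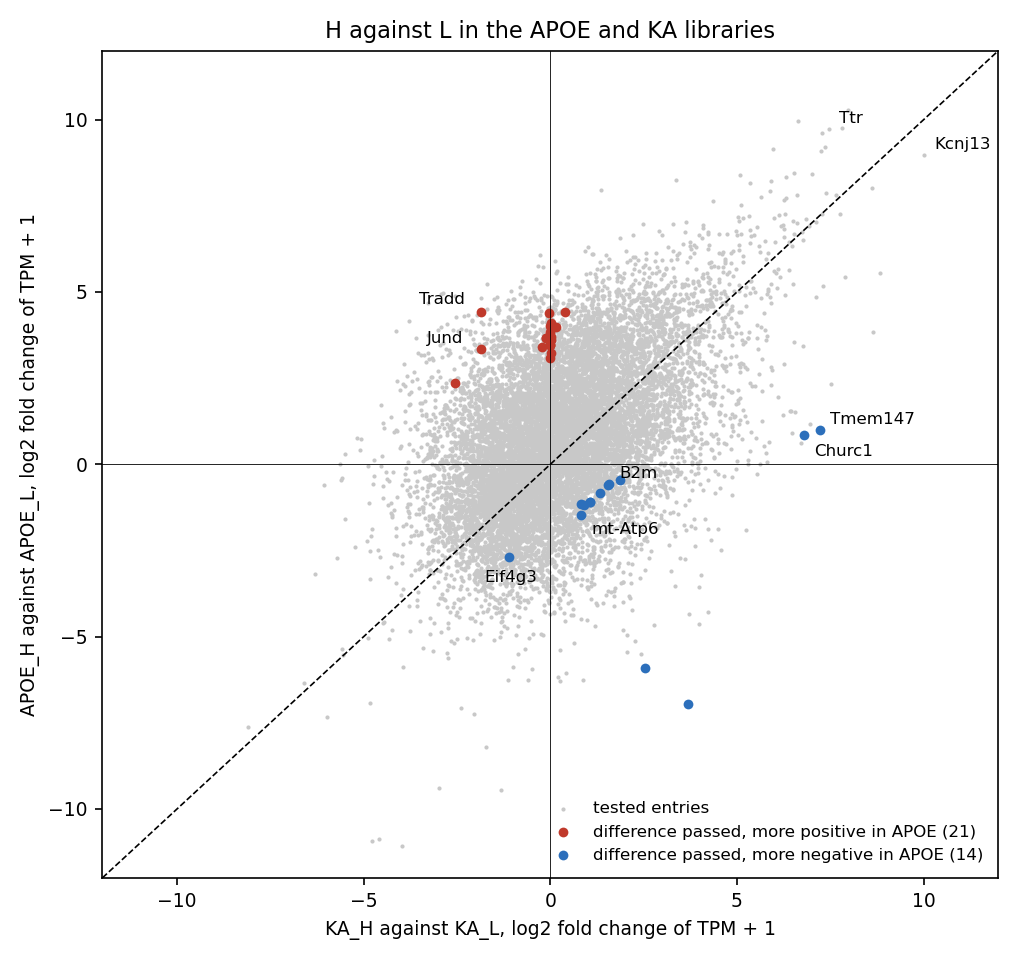
Log2 fold change of TPM + 1 for APOE_H against APOE_L (vertical) and KA_H against KA_L (horizontal) in 12882 entries, with the 35 whose difference passed in red (more positive in APOE, 21) and blue (more negative, 14) and a dashed line of equality. The red points cluster at 0 on the KA axis, and Churc1 and Tmem147 lie far to the right of the line.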

How the data were processed

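RNA from whole brain was sequenced from TruSeq libraries, per the labels' protocols. The authors deposited 1 table of TPM values for 65964 entries in 15 libraries. STAR and the build GRCh38, which is a human build, are named per the submitters' processing notes, while the identifiers are mouse Ensembl ones. The annotation and the tool that made the TPM values are not given in the sources used here. TPM keeps no depth, so the depth of each library is unknown and no interval for counting error was made. Symbols came from GENCODE M21 (52135 of 55416 identifiers matched), and 10548 assembled loci carry no gene.

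The 12882 entries that reached 1 TPM in 3 or more APOE libraries were modelled on the log2(TPM + 1) scale (limma 3.58.1, R 4.3.3). All 15 libraries entered with 1 mean per group (10 residual degrees of freedom) and a variance trend, and p-values were Benjamini-Hochberg adjusted over all of them. Single library measures had exact permutation tests (Python 3.11.15). The members, gene lists, motifs and tests were chosen with earlier results of these data known. Of 1012 list genes 816 were tested. Genes named were Apoe, the leading genes by fold change, p and difference between conditions, the members of each list with the smallest p or the highest level, and the highest means of each group. Alternatives changed the pseudocount, filter, scaling, variance model, replicate block and libraries.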

Additional observations from a re-analysis of the deposited data

Results flagged for a closer look

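The H against L difference in the APOE libraries and that in the KA libraries were compared entry by entry, and 35 entries passed (limma interaction, Benjamini-Hochberg adjusted p under 0.05). Values here are the APOE log2 fold change minus the KA one, on the log2(TPM + 1) scale. More positive in APOE were Tradd, a death receptor adaptor gene, by 6.27, Jund by 5.21, Scrn2 by 4.42, Tmem184a by 4.07, Fah by 4, Rd3 by 3.84, the histone chaperone gene Asf1b by 3.82, Clip4 by 3.69, the melanocortin receptor gene Mc3r by 3.45 and Mdh1b by 3.45. All of these genes except Jund were under 1 TPM in each APOE_L library, so they entered the test through APOE_H alone and had to be high there. None on this positive side passed with the filter over all 15 libraries or a robust fit (0 each, by limma). More negative were Tmem147 at -6.23, Churc1 at -5.95, mt-Atp6 at -2.30, mt-Nd1 at -2.16, Fcer1g at -2.16, mt-Cytb at -2.15, B2m at -2.14 and Eif4g3 at -1.59. The nuclear copies of mitochondrial genes Gm29216 and Gm28437 were at -2.30 and -2.15, and their reads may not be separable from those of the mitochondrial genes. Eif4g3 was lower in H in both conditions.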

How the results depend on the processing

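With the 3 groups of calls in the order APOE, KA and difference between conditions, 1503, 278 and 35 entries passed. Testing each entry above 0 in any APOE library gave 709, 118 and 23, and a mean of 5 TPM in both APOE groups 318, 176 and 13, a filter under which Apoe had no value. Array weights gave 2316 for APOE and 19 for the difference, and upper-quartile scaling 486 for KA. The difference also had 57 with a pseudocount of 0.1, 0 with 5, 23 with a 5 TPM filter, 8 with the filter over 15 libraries (0 positive), 0 after quantile normalization, 0 without trend and 7 with a robust fit (0 positive). Leaving out 1 library gave 661 to 1119, 36 to 319 (lowest without KA_H replicate 3) and 0 to 57. The log2 fold change of Apoe was 4.10 (adjusted p = 0.0617, limma) with APOE libraries alone and 2.97 (0.0694) after quantile normalization.

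Deviations of same-numbered libraries from their group means had correlations of -0.01, 0.01 and 0.03. With 3 libraries a group, these values cannot decide whether the numbers pair the libraries. With a replicate block 1420 entries passed for APOE and 1 for the difference, and with the block in the APOE libraries alone 298, with Apoe at 4.10 (adjusted p = 0.0792, limma).

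No named gene reversed. Calls of Enpp2, Fth1, Cd74, Gapdh and mt-Atp6 were lost when each entry above 0 was tested, and those of Tmem119, Fcrls, H2-Eb1 and mt-Co2 after quantile normalization, among others. The causes were not tested. With 3 libraries a group and no depth, low values are uncertain.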
